A study of Mus musculus with 16 samples.

Results

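Divergent promoters of coding gene pairs are stretches of open chromatin between or across the start sites of 2 protein-coding genes that are transcribed away from each other on opposite strands. They were followed by ATAC-seq, which reads open chromatin from the places where the Tn5 transposase can insert adapters, in activated mouse B cells in which Cre deletes 1 or both copies of Smarca4, the gene of the chromatin remodeler ATPase Brg1. Overlapping or touching peaks of the 8 libraries were joined into 16566 combined regions. A region was a member when its centre lay between 1000 bp upstream and 100 bp downstream of a protein-coding start site, and within 1000 bp of coding start sites on both strands from 2 different genes. This rule gave 1075 members, which is 6.49% of all combined regions and 13.2% of the 8115 regions at coding promoters. The remaining 7040 coding promoter regions, called other coding promoters below, served for comparison. A peak is needed for membership, so a pair of start sites without a peak in any library is not among the members.

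All 8 libraries were made from splenic B cells of C57BL/6 mice, isolated with anti-CD43 (Ly-48) microbeads and cultured with LPS at 10 µg/mL and IL-4 at 20 ng/mL. The labels give 72 hours of culture, the series' design text 96 hours, and no label gives an age. The 4 libraries called Brg1fl/+ here are labelled Brg1fl/+ CD23Cre +/-, and the 4 called Brg1fl/fl are labelled Brg1fl/fl CD23Cre +/-. Every group therefore carried the CD23-Cre transgene, which acts in mature B cells, and the controls had 1 floxed allele of Smarca4 and were not wild type. Each library was made from 50000 cells. How many mice stand behind the 4 libraries of a genotype is not stated, and the list names put libraries 1 and 2 together, and 3 and 4 together, so p-values measure the spread between these libraries only.

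The libraries differed in depth. Their lists held between 6271 and 14614 peaks, and the median number of fragments at the summits of the members present in all libraries ran from 23 to 81. A missing peak therefore means only that a member was not detectable at the depth of the library. The shortest peak of a list was 195 to 204 bp in Brg1fl/+ and 231 to 243 bp in Brg1fl/fl, so a property of the lists moved with genotype, and their parts in peak shape cannot be told apart. Across 669 nuclear members, fragment numbers of libraries of the same genotype differed by 0.774 to 1.12 times the variance of sampling noise, and those of libraries of different genotype by 0.952 to 1.60 times. In Brg1fl/+ the lowest values were those of libraries 3 and 4 (0.774) and of libraries 1 and 2 (0.801), the pairs of the list names. In Brg1fl/fl the lowest was that of libraries 1 and 4 (0.776). This measure cannot show whether libraries of a pair come from separate mice. Each library was counted as 1 sample, without evidence that the 4 of a genotype are independent. Of 7 B cell genes examined, Pax5 and Ms4a1 had a promoter peak in 8 of 8 libraries, Cd79a in 1, and the rest, Cd79b, Ebf1 and Cd22 among them, in none. Promoters of the T cell, myeloid, NK and erythroid markers had no peak in any library. The lists hold no reads over the deleted part of Smarca4 and so give no check of the deletion.

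At a divergent promoter, 2 core promoters sit back to back and share an open, nucleosome-depleted stretch to which transcription factors and RNA polymerase bind. Such pairs are common among housekeeping genes of DNA repair, DNA replication, mitochondrial translation and protein folding, and among the replication-dependent histone genes, where H2A and H2B genes lie head to head and are transcribed in S phase. Most lie in CpG islands and lack a TATA box, while the histone pairs carry TATA and CCAAT boxes. B cells stimulated with LPS and IL-4 divide rapidly and draw on many of these gene groups.

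The sequence between the start sites of a few pairs shows what these promoters look like. All are given 5′ to 3′ on the plus strand of GRCm38, from the base after the minus-strand start to the base before the plus-strand start, and none overlaps an annotated exon. Capitals mark matches, on either strand, to 10 motifs that were searched by their letters. These were the CCAAT box (CCAAT), the GC box (GGGCGG), the ETS motif (CCGGAAGT), the NRF1 motif (GCGCATGCG), the E-box (CACGTG), the cAMP response element (TGACGTCA), the YY1 motif (AAGATGGC), the palindrome CTCGCGAG, the E2F motif (TTTGGCGC) and the TATA box (TATAAA). No motif in this set is contained in another. The first 3 belong to pairs whose peaks were lower in Brg1fl/fl, at chr1:120121079-120121186, chr5:110839778-110839978 and chrX:134601126-134601178.
Dbi/3110009E18Rik: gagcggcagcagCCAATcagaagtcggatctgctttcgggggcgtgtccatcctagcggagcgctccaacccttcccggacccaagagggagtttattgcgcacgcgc
Hscb/Chek2: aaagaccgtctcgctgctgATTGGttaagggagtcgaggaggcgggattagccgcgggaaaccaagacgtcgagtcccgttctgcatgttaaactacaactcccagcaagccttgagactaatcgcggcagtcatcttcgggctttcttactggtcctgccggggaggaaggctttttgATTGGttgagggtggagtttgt
Gla/Hnrnph2: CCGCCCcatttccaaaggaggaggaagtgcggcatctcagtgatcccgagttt

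The next 3 lie under peaks that ranked among the strongest of every library, at chr10:91082771-91082939, chr13:47043344-47043498 and chr5:20882125-20882190, the last of which holds none of the motifs between its start sites.
Apaf1/Ikbip: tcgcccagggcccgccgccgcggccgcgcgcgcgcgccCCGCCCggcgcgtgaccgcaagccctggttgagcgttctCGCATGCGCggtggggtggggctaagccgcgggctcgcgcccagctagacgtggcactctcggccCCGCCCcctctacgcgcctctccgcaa
Tpmt/Kdm1b: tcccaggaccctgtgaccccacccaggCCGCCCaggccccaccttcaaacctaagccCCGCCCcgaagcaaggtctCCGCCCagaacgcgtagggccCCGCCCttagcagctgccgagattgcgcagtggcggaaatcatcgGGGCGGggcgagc
Phtf2/Tmem60: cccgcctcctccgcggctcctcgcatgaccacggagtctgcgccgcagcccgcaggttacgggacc

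The last 3 are the stretch shared by Wrap53, a telomerase-associated protein gene, and Trp53, which encodes the tumour suppressor p53, and 2 histone pairs with a low G+C content. They lie at chr11:69580256-69580358, chr13:21787219-21787460 and chr13:23683949-23684198. In the histone stretches CCAAT and its reverse complement ATTGG recur, next to a TATA box that reads towards the minus-strand H2A gene.
Wrap53/Trp53: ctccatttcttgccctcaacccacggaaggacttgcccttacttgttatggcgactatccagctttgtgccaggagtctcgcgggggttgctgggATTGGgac
Hist1h2an/Hist1h2bp: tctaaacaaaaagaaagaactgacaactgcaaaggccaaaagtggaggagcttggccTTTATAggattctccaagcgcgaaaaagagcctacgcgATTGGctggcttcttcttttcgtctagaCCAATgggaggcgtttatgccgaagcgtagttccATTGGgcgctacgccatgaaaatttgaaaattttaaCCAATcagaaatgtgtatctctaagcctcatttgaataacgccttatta
Hist1h2ac/Hist1h2bc: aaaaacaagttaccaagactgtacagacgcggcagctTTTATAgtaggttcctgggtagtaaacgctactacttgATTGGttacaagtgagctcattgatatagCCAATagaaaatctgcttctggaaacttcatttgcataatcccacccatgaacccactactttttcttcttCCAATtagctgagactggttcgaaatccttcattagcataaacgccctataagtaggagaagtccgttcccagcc

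The 1075 members represent 1059 gene pairs and 2112 genes, or 9.67% of 21842 coding genes. A further look at the annotation showed that 30 members had 3 or more coding genes within 1000 bp, 107 involved a predicted or clone-named gene, and 1 lay in the mitochondrial genome. In 889 members (82.7%) the genes were head to head with the start sites apart, and in 186 the transcripts overlapped or began at the same base. The head-to-head spacing had a median of 115 bp and quartiles of 64 and 223 bp, and 742 of these members (83.5%) had start sites no more than 300 bp apart. At the edge of the rule, the 17 members whose farther start site lay in the last 100 bp of the limit of 1000 bp had a peak in a median of 8 libraries, and the 20 regions in the first 100 bp beyond it in a median of 4.5.

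In the 300 bases around the centre, the 1074 nuclear members had a median G+C content of 64.7% and a CpG observed-over-expected ratio of 0.88, beside 67.3% and 0.86 in other coding promoters. CCAAT occurred in 39.4% of members and 35.5% of other coding promoters, and the ETS motif in 13.6% and 8.71%. The YY1 motif was present in 7.64% and 5.68%, and the NRF1 motif in 4.93% and 3.91%. The GC box was found in 71.2% of members and 75.9% of other coding promoters, and the E-box in 10.2% and 10.4%. The cAMP response element was present in 4.28% and 3.62%, the palindrome CTCGCGAG in 2.89% and 2.05%, and the E2F motif in 1.21% and 0.796%. A TATA box was present in 3.63% and 2.91%. These shares are descriptions of the letters in the window and were not tested.

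Whether divergent promoters are more often in the peak lists than other coding promoters was asked within each library. In Brg1fl/+ libraries 1 to 4, 99.3%, 94.6%, 72.4% and 80.7% of the members had a peak, and in Brg1fl/fl libraries 1 to 4 it was 88.8%, 73.5%, 86.6% and 86.5%. Among other coding promoters the shares were 97.4%, 85.1%, 54.2% and 64.0% in Brg1fl/+ and 70.9%, 51.5%, 68.5% and 69.9% in Brg1fl/fl. Divergent promoters were thus higher in 8 of 8 libraries, by 15.1 percentage points on average (two-sided exact permutation test over all sign patterns of the 8 libraries, p = 0.00781, the smallest p this test can give). Against CpG-rich other coding promoters, the difference was 10.7 points. A region of the combined set is the joined peaks of all lists, so the deepest library, Brg1fl/+ 1, comes close to 100% by construction. The class with more peaks also had 2 start sites that could each bring a peak, and the part of that in the difference was not tested.

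**Figure D1:**
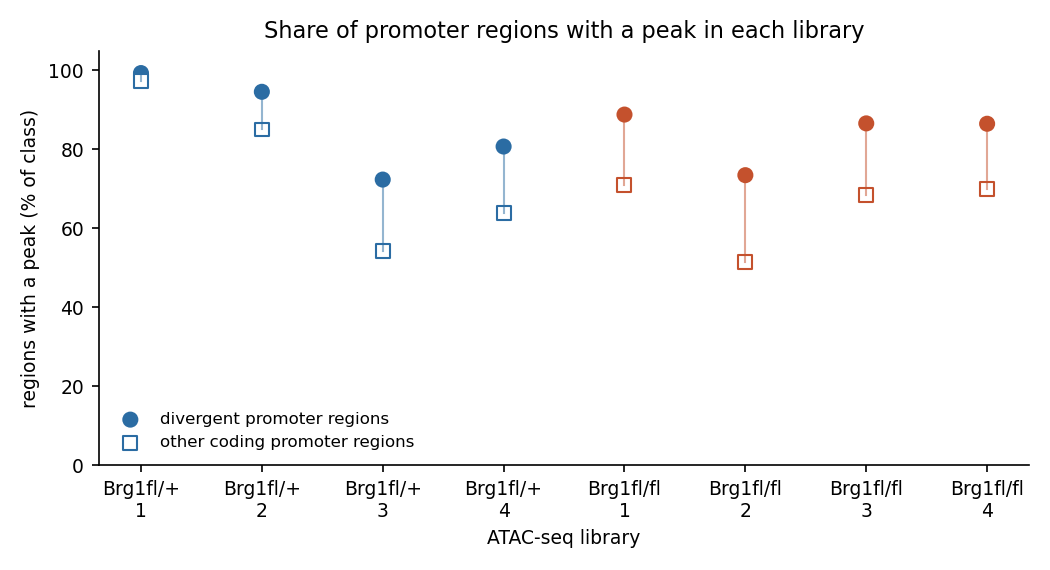
Percent of the 1075 divergent promoter regions (filled circles) and of the 7040 other coding promoter regions (open squares) with a peak in each ATAC-seq library, with Brg1fl/+ in blue and Brg1fl/fl in red and a line joining the values of a library. The circle lies above the square in all 8 libraries, and the gap is narrowest in Brg1fl/+ 1, at 99.3% and 97.4%.

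All 8 libraries had a peak at 670 members (62.3%), compared with 2986 of 7040 other coding promoters (42.4%). At the other end, 40 members had a peak in 1 library only, and 35 of these were found in Brg1fl/+ 1. With the annotation as the denominator instead of the peaks, 1269 pairs of coding start sites were counted. Of these, 1085 (85.5%) had a peak in at least 1 library, beside 36.4% of the 19456 genes outside such pairs. Both denominators count genes whether or not they are active in these cells, and a pair offers the start sites of both its genes. The part of either in this gap was not tested. Median peak folds of the classes lay close together. The fold is the height of a peak's summit over the local background of its own library. Its median over shared members was 13.8, 13.6, 10.7 and 12.3 in Brg1fl/+ and 11.6, 9.64, 11.3 and 11.5 in Brg1fl/fl. Other coding promoters had medians of 13.98, 13.6, 10.8 and 12.4 in Brg1fl/+ and 11.5, 9.49, 11.3 and 11.5 in Brg1fl/fl, a difference of -0.0139 (two-sided exact permutation test over all sign patterns of the 8 libraries, p = 0.719).

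Members with more widely spaced start sites were detected in more libraries, up to 500 bp, which is given as a description. Where start sites overlapped, members had a peak in 79.4% of Brg1fl/+ and 74.5% of Brg1fl/fl observations, and at a spacing of 1 to 50 bp in 85.0% and 82.2%. Between 100 and 200 bp the means were 88.6% and 86.5%, between 200 and 300 bp 93.1% and 90.0%, and between 300 and 500 bp 93.3% and 93.9%. Beyond 500 bp they were 85.4% and 81.2% over 65 members. Among 572 head-to-head members shared by all libraries, spacing had a Spearman's rho of 0.18 with region width and of 0.11 with median fold. Both are descriptions across regions of the same 8 libraries.

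**Figure D2:**
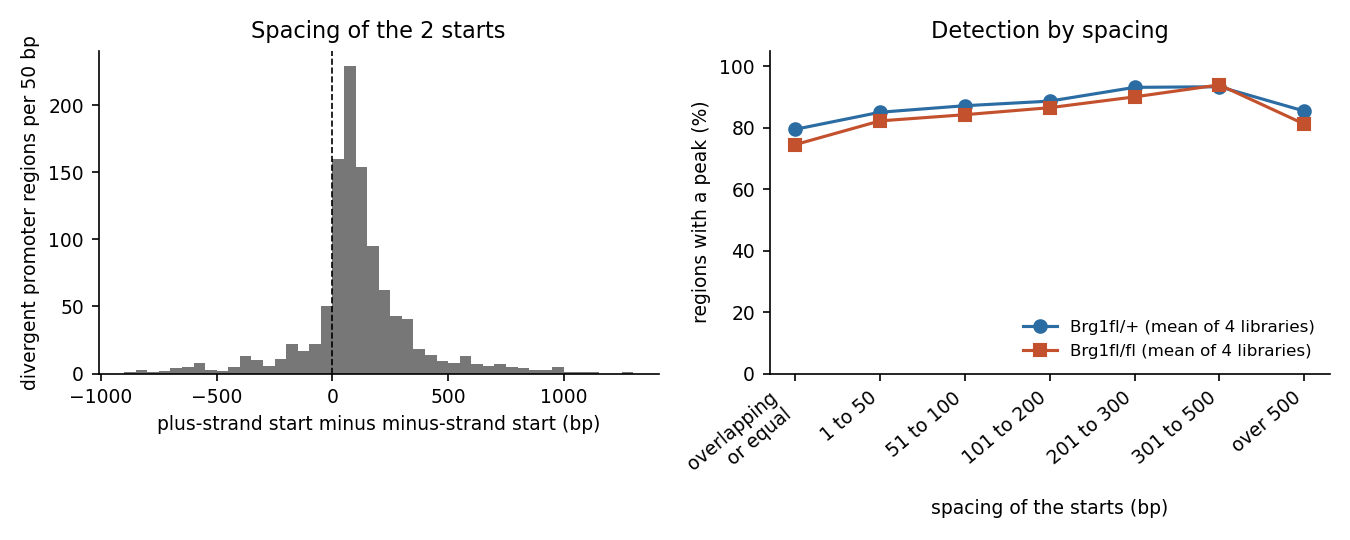
The left panel counts divergent promoter regions per 50 bp of spacing, with negative values where the 2 transcripts overlap, and the right panel gives the mean percent of regions with a peak by spacing, over 4 Brg1fl/+ libraries (blue) and 4 Brg1fl/fl libraries (red). Most head-to-head pairs lie within 300 bp, and the mean detection climbs from 79.4% for overlapping start sites to 93.3% between 300 and 500 bp in Brg1fl/+.

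The loss of Brg1 was compared first by detection. Divergent promoters with a peak averaged 86.8% ± 12.4 (SD, n = 4) in Brg1fl/+ and 83.9% ± 6.998 (SD, n = 4) in Brg1fl/fl. They differed by -2.91 points (two-sided exact permutation test over 70 assignments, p = 0.743, smallest possible 0.0286). The 2 groups overlapped throughout. Without Brg1fl/+ replicate 1 the difference was 1.40 points and without Brg1fl/fl replicate 2 it was 0.550, so its direction rests on those libraries. For other coding promoters it was 75.2% ± 19.6 in Brg1fl/+ and 65.2% ± 9.17 in Brg1fl/fl (SD, n = 4 each). The excess of divergent over other coding promoters was 7.06 points larger in Brg1fl/fl, which did not pass (two-sided exact permutation test, p = 0.2). It reached the smallest possible p of 0.0286 when equal numbers of peaks were kept per library (5.11 points) and when peaks had to cover 50% of a region (8.08 points). With all annotated pairs and all other coding genes as denominators, which do not need a peak, it was 1.39 points (two-sided exact permutation test, p = 0.657).

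By member, 198 (18.4%) had a peak in fewer Brg1fl/fl than Brg1fl/+ libraries, compared with 47.2% of all combined regions and 37.3% of other coding promoters. Another 123 (11.4%) had a peak in more Brg1fl/fl libraries, compared with 16.7% and 10.4%. The number was equal in 754 members. A region with a peak in all 8 libraries can only count as equal. Such regions were 62.3% of members, 42.4% of other coding promoters and 4593 of all 16566 combined regions. The shares with fewer or more peaks therefore do not compare like with like. No member had a peak in all 4 Brg1fl/+ and no Brg1fl/fl library, a pattern seen in 0.404% of all combined regions. The reverse pattern, at 0.169% of all regions, had 1 member, the region of Pecam1 and Milr1 at chr11:106750810-106751523. Pecam1 encodes the adhesion molecule CD31, and its start site is 598 bp from that of Milr1. Folds at this region were 4.22, 4.402, 4.88 and 4.201 in Brg1fl/fl libraries 1 to 4, from 11, 7, 11 and 9 fragments at the summit. All 4 peaks were weak, since at least 89.7% of the peaks of each list ranked above them by q.

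Peak height was then compared at the 670 members that had a peak in all 8 libraries. The rest were not tested. Folds were divided by the median of their library and taken to log2, and limma was fitted to all 4593 combined regions shared by the 8 libraries, with adjustment over all of them. The fit called 5 members (0.746%) lower and 10 (1.49%) higher in Brg1fl/fl, beside 2.16% and 3.31% of all regions tested. In other coding promoters 74 and 80 of 2986 were called. The shares called were thus below those of all regions tested. The log2 difference, Brg1fl/fl minus Brg1fl/+, had a median of 0.05 in members and 0.03 in all regions, and ranged from -0.66 to 0.52 in members with a median SE of 0.12. At an unadjusted p below 0.05, 51 members were lower and 72 higher, or 123 of 670, beside 1060 of all 4593 regions tested.

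Counts of called members depended on scaling and on single libraries. Before division by the library median, folds were lower in Brg1fl/fl by 0.17 on the log2 scale over all regions. Without the division 11 members were lower and 0 higher in the limma fit, beside 3.37% and 0.152% of all regions. At an unadjusted limma p below 0.05, that fit had 150 members lower and 1 higher. Using the fragments at the summit in place of the fold gave 18 lower and 52 higher, beside 3.55% and 9.43% of all regions. The counts over all regions thus moved with those of the members. If libraries 1 and 2 and libraries 3 and 4 were averaged as the list names group them, 1 member was called in each direction, beside 0.675% and 0.914% of all regions. Leaving out Brg1fl/+ replicate 1 gave 1 lower and 4 higher, beside 0.936% and 1.33% of all regions. Leaving out Brg1fl/+ replicate 2 gave 1 and 1, beside 0.650% and 1.04% of all regions. Without Brg1fl/+ replicate 3, the shallowest of its genotype, 12 were lower and 29 higher, beside 2.54% and 5.69% of all regions. Without Brg1fl/+ replicate 4 there were 3 and 6, beside 1.12% and 1.80% of all regions. Without Brg1fl/fl replicate 1 there were 2 and 3, beside 1.15% and 1.43% of all regions. Without Brg1fl/fl replicate 4 there were 5 and 6, beside 1.60% and 2.01% of all regions.

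**Figure D3:**
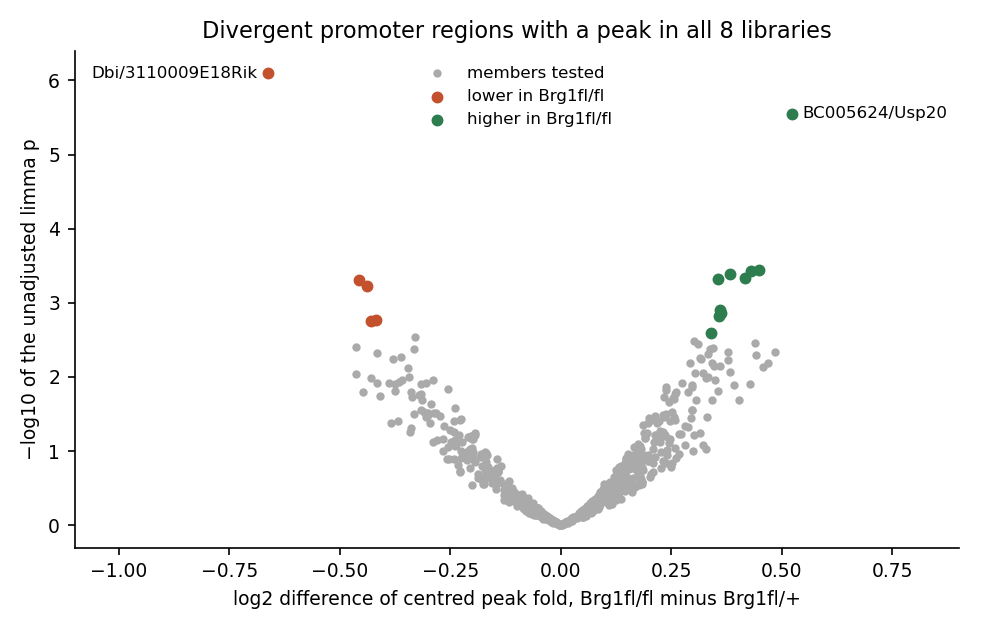
Each point is 1 of the 670 divergent promoter regions with a peak in all 8 libraries, with the log2 difference of the centred peak fold (Brg1fl/fl minus Brg1fl/+) on the x axis and the −log10 of the unadjusted limma p on the y axis. The 5 regions called lower (red) and the 10 called higher (green) stand at the edges, with Dbi/3110009E18Rik at -0.66 and BC005624/Usp20 at 0.52 apart from the others.

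The 5 members called lower joined genes of lipid handling, DNA replication, checkpoint signalling, the Golgi and the lysosome. At the promoter of Dbi, which encodes the acyl-CoA-binding protein, and 3110009E18Rik (chr1:120120833-120121432, start sites 109 bp apart), peak folds were 18.1, 16.9, 16.6 and 16.98 in Brg1fl/+ libraries 1 to 4 and 11.3, 7.88, 10.5 and 8.44 in Brg1fl/fl libraries 1 to 4. Every Brg1fl/fl value was below every Brg1fl/+ value. The log2 difference after centring was -0.66 ± 0.11 (SE, adjusted p = 0.000661), the lowest p of any member in the limma fit, and the call was made in 12 of 12 alternative fits (a −log10 q of at least 5, fragments, no centring, a replicate block and each library left out). Fragments at the summit were 102, 62, 37 and 53 in Brg1fl/+ and 41, 17, 34 and 28 in Brg1fl/fl.

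Pole, the catalytic subunit of DNA polymerase epsilon, shares its promoter with Pxmp2, a peroxisomal membrane channel (chr5:110285926-110286575, 120 bp apart). Folds there were 16.2, 14.5, 13.03 and 12.6 in Brg1fl/+ libraries 1 to 4 and 9.01, 7.15, 9.35 and 10.3 in Brg1fl/fl libraries 1 to 4, again without overlap. Its log2 difference was -0.46 ± 0.12 (SE, adjusted p = 0.0226) in the limma fit. Chek2, a checkpoint kinase of the DNA damage response, is paired with Hscb, a cochaperone of iron-sulphur cluster assembly (chr5:110839551-110840191, 202 bp apart). There the folds were 14.5, 13.9, 10.8 and 12.99 in Brg1fl/+ libraries 1 to 4 and 8.75, 8.02, 8.51 and 8.46 in Brg1fl/fl libraries 1 to 4, and the log2 difference was -0.42 ± 0.12 (SE, adjusted p = 0.0389). The 4 Brg1fl/fl libraries lay close together and below all 4 Brg1fl/+ libraries. This call was lost in 7 of 12 alternative fits.

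At Blzf1, which encodes golgin-45, and Nme7, a member of the nucleoside diphosphate kinase family (chr1:164307254-164307816, 183 bp apart), folds were 15.4, 16.1, 10.95 and 13.9 in Brg1fl/+ libraries 1 to 4 and 9.47, 7.71, 9.25 and 9.47 in Brg1fl/fl libraries 1 to 4, without overlap. The log2 difference was -0.44 ± 0.12 (SE, adjusted p = 0.0238). Gla, the lysosomal alpha-galactosidase, and Hnrnph2, an RNA-binding protein of splicing, share a promoter on the X chromosome (chrX:134600835-134601524, 54 bp apart). Its folds were 15.9, 15.05, 9.85 and 13.2 in Brg1fl/+ libraries 1 to 4 and 9.71, 6.69, 8.2 and 10.1 in Brg1fl/fl libraries 1 to 4, so that raw folds overlapped at 9.85 and 10.1. Divided by the library median, they ran from 0.944 to 1.16 times the library median in Brg1fl/+ and from 0.722 to 0.900 times in Brg1fl/fl, without overlap, and the log2 difference was -0.43 ± 0.13 (SE, adjusted p = 0.0392). The call at Gla/Hnrnph2 was lost in 8 of 12 alternative fits.

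All 5 members called lower held CCAAT within the 300 bases around the centre, beside 283 of 669 nuclear members tested (42.3%) and 4 of 10 called higher. In the printed stretches it stands at Dbi/3110009E18Rik and Hscb/Chek2, and at Gla/Hnrnph2 it lies outside the stretch. Among other coding promoters CCAAT was present in 39 of 74 called lower (52.7%), 35.4% of those called higher and 39.2% of those tested. This was noticed after the values were seen and was not tested.

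Of the 10 members called higher, BC005624/Usp20 had the lowest p. Usp20 encodes a deubiquitinase, and the start sites lie 338 bp apart (chr2:30981745-30982475). Folds were 14.7, 14.8, 10.4 and 13.97 in Brg1fl/+ libraries 1 to 4 and 16.6, 14.98, 17.7 and 17.6 in Brg1fl/fl libraries 1 to 4, or from 0.999 to 1.17 times the library median in Brg1fl/+ and from 1.48 to 1.62 times in Brg1fl/fl. The log2 difference was 0.52 ± 0.10 (SE, adjusted p = 0.00161), and the call was kept in 11 of 12 alternative fits. Raw folds of the groups came close to each other, at 14.8 and 14.98, and relative folds were well apart.

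Atf5 encodes a stress-responsive bZIP transcription factor, and its overlapping neighbour Il4i1 encodes an L-amino acid oxidase first described as induced by IL-4, the cytokine used in these cultures (chr7:44815714-44816578). Folds were 11.4, 11.3, 9.38 and 10.04 in Brg1fl/+ libraries 1 to 4 and 12.6, 11.6, 12.3 and 13.4 in Brg1fl/fl libraries 1 to 4. Every Brg1fl/fl value exceeded every Brg1fl/+ value, and the log2 difference was 0.45 ± 0.11 (SE, adjusted p = 0.0199). Mrps18b, a protein of the small mitochondrial ribosomal subunit, and Ppp1r10, which targets protein phosphatase 1 in the nucleus, share the region chr17:35916204-35917058. Its folds were 13.03, 11.9, 11.7 and 11.3 in Brg1fl/+ libraries 1 to 4 and 14.1, 13.5, 15.7 and 12.8 in Brg1fl/fl libraries 1 to 4, with a log2 difference of 0.43 ± 0.11 (SE, adjusted p = 0.0207). As deposited, only Brg1fl/fl replicate 4 lay within the Brg1fl/+ range.

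At Srr, the serine racemase, and Smg6, an endonuclease of nonsense-mediated decay (chr11:74925488-74926260), folds were 13.6, 13.3, 9.34 and 12.8 in Brg1fl/+ libraries 1 to 4 and 16.7, 10.6, 15.7 and 14.1 in Brg1fl/fl libraries 1 to 4. Here Brg1fl/fl replicate 2 lay inside the Brg1fl/+ range, and it was above it only after division by the library median. The log2 difference was 0.42 ± 0.11 (SE, adjusted p = 0.0220).

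A further 5 members called higher were outside the naming rule and are listed after their values were seen. Larp7, a protein of the 7SK complex that restrains transcription elongation, and Zgrf1 had a log2 difference of 0.36. It was 0.36 at Tmed7/Eif1a, 0.36 at the promoter that Gm10644 shares with Asf1b, a histone chaperone of replicating cells, 0.36 at Deaf1/Tmem80 and 0.34 at Cdca2/Kctd9. Adjusted p-values from limma were 0.0226, 0.0345, 0.0358, 0.0372 and 0.0468. In 12 alternative fits these calls were lost in 5 at Larp7/Zgrf1, 7 at Tmed7/Eif1a, 8 at Gm10644/Asf1b, 9 at Deaf1/Tmem80 and 8 at Cdca2/Kctd9, and by fragments the log2 difference at Gm10644/Asf1b was 0.19. The call at Atf5/Il4i1 was lost in 2 fits, that at Mrps18b/Ppp1r10 in 3 and those at Srr/Smg6, Pxmp2/Pole and Blzf1/Nme7 in 4 each. Relative folds did not overlap between genotypes at any of the 15 members called. The calls were made from these same values, so this adds no support to them. Members that were not called, Ppat/Paics and Bcl6/Gm37419 among them, also had relative folds without overlap.

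**Figure D4:**
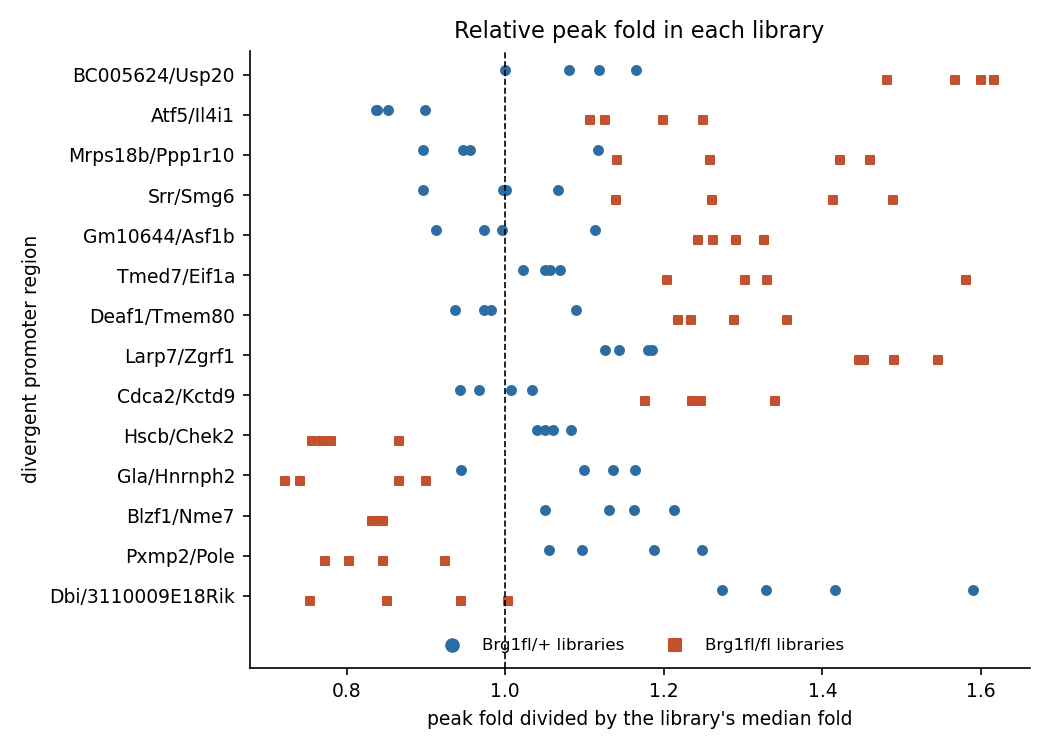
Peak fold divided by the median fold of the same library (x axis, with 1 dashed) at 14 of the 15 divergent promoter regions called in the limma fit, with 4 Brg1fl/+ libraries as blue circles and 4 Brg1fl/fl libraries as red squares. At Dbi/3110009E18Rik the Brg1fl/+ values run from 1.27 to 1.59 and the Brg1fl/fl values from 0.754 to 1.00. At no region do the groups overlap, and the regions were called from these same values.

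Textbook bidirectional pairs were nearly all open in every library. Of 11 listed, 10 had a member region, and 9 of those had a peak in 8 of 8 libraries. Surf1/Surf2, with start sites 22 bp apart, had no combined region there. Atm, the kinase that signals double-strand breaks, and Npat, the coactivator of histone genes, share chr9:53536536-53537185. Folds were 19.7, 18.1, 17.6 and 13.9 in Brg1fl/+ libraries 1 to 4 and 18.1, 13.3, 16.03 and 17.7 in Brg1fl/fl libraries 1 to 4, and the groups overlapped with a log2 difference of 0.11 ± 0.10 (SE, adjusted p = 0.527) in the limma fit. At chr16:15637172-15637923 the replicative helicase subunit Mcm4 is paired with Prkdc, the catalytic subunit of DNA-PK. Folds were 15.4, 14.2, 14.96 and 13.8 in Brg1fl/+ libraries 1 to 4 and 13.5, 11.3, 10.04 and 12.98 in Brg1fl/fl libraries 1 to 4, all lower in Brg1fl/fl as deposited, and after centring its log2 difference was -0.09 ± 0.11 (SE, adjusted p = 0.652) in the same fit.

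The mitochondrial chaperonins Hspd1 and Hspe1 had folds of 13.7, 13.4, 12.3 and 12.4 in Brg1fl/+ and 13.1, 11.1, 12.2 and 13.6 in Brg1fl/fl at chr1:55087650-55088584. Psmb9, a subunit of the immunoproteasome, and Tap1, the peptide transporter of antigen presentation, share chr17:34187291-34187829, with folds of 17.3, 13.8, 10.4 and 12.6 in Brg1fl/+ and 12.1, 11.4, 9.57 and 12.04 in Brg1fl/fl. At Gart, of purine synthesis, and Son, a splicing cofactor, folds were 11.3, 11.1, 8.06 and 10.7 in Brg1fl/+ and 10.1, 9.38, 10.4 and 9.48 in Brg1fl/fl. The groups overlapped at each of these pairs. The purine synthesis genes Ppat and Paics had folds of 8.91 to 13.6, Ranbp1/Trmt2a of 10.9 to 15.4 and Mrps12/Sars2 of 8.601 to 12.97. At the known pairs named here the lowest adjusted p in the limma fit was 0.0905 at Ppat/Paics.

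Wrap53/Trp53 was the known pair with the weakest peaks and was represented by 2 regions. The region over the start sites (chr11:69580060-69580567) had a peak in Brg1fl/+ libraries 1 and 2, with folds of 7.14 and 6.83, and in Brg1fl/fl libraries 3 and 4, with 5.75 and 4.23. The other (chr11:69579306-69579612) had a peak only in Brg1fl/+ libraries 1 and 2, with folds of 5.97 and 5.71. Brg1fl/+ 1 and 2 had the longest peak lists.

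Gene groups differed in how often they used divergent promoters with a peak, while few of their regions were called. Of 80 DNA repair genes, 37.5% were in member pairs, beside 9.67% of all coding genes. The share was 20.0% of 90 genes of DNA replication and cell cycle, 37.3% of 67 histone genes, 38.0% of 108 genes of the mitochondrial ribosome and mitochondrial translation, 35.9% of 92 splicing and processing genes, and 28.4% of 67 chaperone and proteasome genes. Of 68 B cell and immune genes it was 5.88%. The 9.67% counts all 21842 coding genes, also those without a peak, although membership needs a peak. Of the 19456 genes outside annotated pairs, 36.4% had a peak in any library. A list of genes with open promoters can therefore exceed 9.67% without a preference for divergent promoters. These shares describe lists of common genes and were not tested.

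DNA repair genes had 30 member regions, of which 20 were tested, 0 were lower and 1 higher, with a median log2 difference of -0.01 beside 0.03 in all regions tested (limma, with 1 lower and 1 higher at an unadjusted p below 0.05). Among the highest folds were those at Atm/Npat, given above, and at the promoter of Xrcc4, of end joining, and Tmem167 (10.2 to 18.1). Replication and cell cycle genes had 18 regions and 15 tested, of which 2 were lower (Pxmp2/Pole and Hscb/Chek2) and 1 higher, with a median of 0.02. Rpa1, of the single-strand binding complex, and Smyd4 had folds of 14.96 to 21.7 and a log2 difference of -0.04. Orc6, of the origin recognition complex, paired with Vps35, had folds of 12.1 to 16.9.

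Histone pairs stood apart by sequence. In 12 of the 13 histone members both genes were histone genes, 12 held CCAAT (92.3%) and 8 a TATA box (61.5%), and the median G+C content was 46.3%, against 39.4%, 3.63% and 64.7% in all nuclear members. Their start sites lay 156 to 660 bp apart. Of 7 histone members tested, 0 were lower and 0 higher (limma, 0 and 1 at an unadjusted p below 0.05), and the median log2 difference was 0.10. Hist1h2an/Hist1h2bp had folds of 11.4, 10.8, 10.96 and 11.6 in Brg1fl/+ and 11.2, 10.2, 9.65 and 10.7 in Brg1fl/fl, and the groups overlapped. Folds ran from 8.54 to 15.1 at Hist1h2ah/Hist1h2bk and from 8.68 to 12.02 at Hist1h2ac/Hist1h2bc. These genes have near-identical copies, so reads may have been shared or lost between them and their values are uncertain.

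Genes of the mitochondrial ribosome and mitochondrial translation had 39 regions and 24 tested, with 0 lower and 1 higher, Mrps18b/Ppp1r10 (limma, 1 and 3 at an unadjusted p below 0.05). The median log2 difference was 0.01. Mrpl18, which shares a promoter with Tcp1, a subunit of the cytosolic chaperonin, had folds of 14.8 to 17.9. The folds were 11.1 to 16.7 at Mrpl54/Apba3 and 8.58 to 14.3 at Tmem63b/Mrpl14. In Mrps12/Sars2 and Mrpl46/Mrps11 both partners act in mitochondrial translation.

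Splicing and processing genes had 33 regions and 23 tested, of which 0 were called (limma, 4 lower and 3 higher at an unadjusted p below 0.05), with a median of 0.05. Folds were 14.9 to 18.2 at Hnrnpd/4930524J08Rik, 11.5 to 16.2 at the promoter of the spliceosomal Sm protein gene Snrpd2 and 12.5 to 20.03 at that of Exosc5, of the RNA exosome. Chaperone and proteasome genes had 17 regions and 12 tested, again with 0 called (limma, 0 lower and 2 higher at an unadjusted p below 0.05) and a median of 0.07. Hspa14/Cdnf had folds of 11.9 to 17.9, and AY074887/Psma4, with a 20S proteasome subunit, of 10.5 to 17.1.

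The B cell and immune genes had 3 member regions, all tested, with 0 called (limma, 0 lower and 1 higher at an unadjusted p below 0.05) and a median log2 difference of -0.04. Besides Psmb9/Tap1 these were Bcl6, the germinal centre repressor, with the predicted gene Gm37419, and Myd88, the adaptor of Toll-like receptor signalling, with Acaa1a. At Bcl6/Gm37419, folds were 14.04, 13.1, 8.22 and 11.9 in Brg1fl/+ and 12.6, 10.8, 12.7 and 13.6 in Brg1fl/fl, and the log2 difference was 0.30 ± 0.11 (SE, adjusted p = 0.109) in the limma fit. At Myd88/Acaa1a the folds were 10.8, 9.77, 8.42 and 11.3 in Brg1fl/+ and 8.4, 6.32, 8.29 and 7.73 in Brg1fl/fl, and the log2 difference was -0.19 ± 0.14 (SE, adjusted p = 0.445) in the same fit. All 4 Brg1fl/fl values at Myd88/Acaa1a were below the lowest Brg1fl/+ value before centring, narrowly, at 8.4 against 8.42. Divided by the library median, the folds of the groups overlapped. Before centring, folds were lower in Brg1fl/fl over all regions too, by 0.17 on the log2 scale.

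The members that ranked highest in all lists were led by the mitochondrial region of mt-Nd6 and mt-Cytb, which reached 12298 to 38071 fragments at the summit with folds of only 1.82 to 2.35 of a local background that is also high. Mitochondrial DNA carries no nucleosomes, and the region is a member by the rule alone. Next came Apaf1, the core of the apoptosome, with Ikbip (chr10:91082694-91083253), whose folds were 19.5, 21.4, 19.3 and 20.4 in Brg1fl/+ and 19.3, 18.8, 19.9 and 19.9 in Brg1fl/fl. Tpmt and Kdm1b, a histone H3K4 demethylase gene, had folds of 16.2 to 21.03. Rbbp4, a histone-binding subunit of several chromatin complexes, and Zbtb8os had 14.5 to 18.98, and Phtf2/Tmem60 had 14.6 to 18.4. At none of these 5 did the adjusted limma p reach the threshold, with the lowest at 0.205 for Tpmt/Kdm1b.

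Position of the summit was compared last, by measures chosen after the values were seen. At the 572 head-to-head members shared by all libraries, 57.7%, 57.9%, 58.0% and 58.2% of summits lay between the start sites in Brg1fl/+ and 53.7%, 56.6%, 53.5% and 54.9% in Brg1fl/fl. The groups did not overlap, and means came to 58.0% ± 0.226 and 54.7% ± 1.45 (SD, n = 4 each, two-sided exact permutation test, p = 0.0286, adjusted p = 0.0571 over 6 measures). The median distance from the midpoint was 57.5, 58, 57 and 54.5 bp in Brg1fl/+ and 61.25, 60.75, 60.75 and 64 bp in Brg1fl/fl (exact permutation test, adjusted p = 0.0571). The mean distance was 122 and 124 bp and did not pass (exact permutation test, p = 0.4).

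By spacing, the share between the start sites was 29.5% ± 1.89 against 23.4% ± 1.84 (SD, n = 4 each) at 1 to 100 bp, 64.6% against 61.7% between 100 and 200 bp and 86.0% against 85.7% above 200 bp. The median distance from the midpoint was larger in Brg1fl/fl at the first 2 spacings, at 52.5 against 63.6 bp and 40.4 against 50.6 bp. It was smaller above 200 bp, at 83.5 to 92 bp in Brg1fl/+ and 68 to 82 bp in Brg1fl/fl. The larger distance over all spacings therefore did not hold above 200 bp. At each spacing the exact permutation test of this distance gave an unadjusted p = 0.0286, the smallest it can give. These splits by spacing were not part of the adjustment. Member by member, the summit was farther from the midpoint in Brg1fl/fl at 283, nearer at 280 and equal at 9, and at 364 it moved by no more than 25 bp. In other coding promoters the summit lay upstream of the start site in 87.7%, 87.7%, 86.5% and 87.0% of regions in Brg1fl/+ and in 83.2%, 82.3%, 82.6% and 83.9% in Brg1fl/fl (exact permutation test, p = 0.0286, adjusted p = 0.0571), so the same kind of difference was present outside divergent promoters. The shortest peak was 195 to 204 bp in Brg1fl/+ lists and 231 to 243 bp in Brg1fl/fl lists, and genotype and this property of the lists cannot be told apart.

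**Figure D5:**
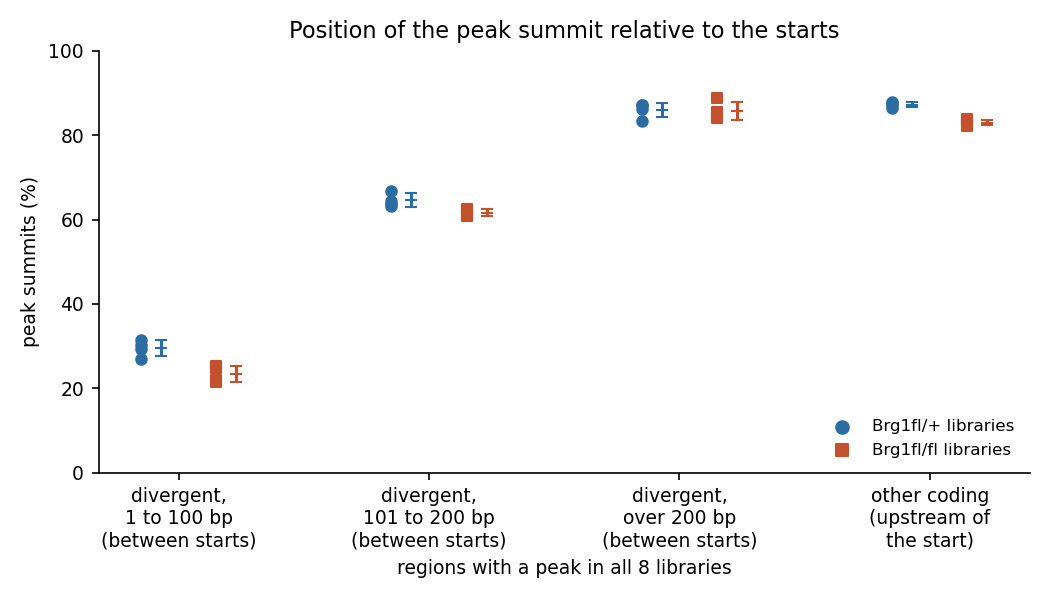
Percent of peak summits between the start sites of divergent promoters, by spacing, and upstream of the start site of other coding promoters, for each of 4 Brg1fl/+ (blue circles) and 4 Brg1fl/fl libraries (red squares), with the mean and SD beside them. Brg1fl/fl libraries lie below Brg1fl/+ libraries at 1 to 100 bp (23.4% against 29.5%), and the groups coincide above 200 bp.

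Median peak width at the shared members was 680, 563.5, 381 and 456 bp in Brg1fl/+ libraries 1 to 4 and 596.5, 455, 582.5 and 592 bp in Brg1fl/fl. The narrowest peaks were in the 3 libraries with the shortest lists, and the difference between genotypes did not pass (exact permutation test, p = 0.629). From 1 to 13 members per library held 2 or more peaks. A low number follows from the rule, since separate peaks form separate regions unless a peak of another library joins them. Of the gene pairs, 16 had 2 or more regions.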

How the data were processed

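ATAC-seq peak lists of 8 libraries were analysed, 4 Brg1fl/+ and 4 Brg1fl/fl, grouped by the labels. The 8 RNA-seq libraries were not analysed here. Reads had been mapped to mm10 (Bowtie2) by the authors, who ran MACS2 on every library separately, while versions, options and the handling of duplicates and transposase shift are not given in the sources used here. The deposited lists hold, for each peak, the fold of its summit over the local background (a ratio), the deposited −log10 p and −log10 q, a score that is 10 times the −log10 q in the authors' lists and was not used, and the summit position. They hold no read counts, so the authors' comparison of coverage was not repeated. MACS2 smooths the fold with a constant, so that it understates weak and shallow peaks.

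Overlapping and touching peaks were merged across the 8 lists, and a library detected a region if a peak of its list shared at least 1 bp with it. Start sites were those of protein-coding transcripts of GENCODE M21, and sequences were read from RefSeq GRCm38.p6, both of the build the lists use. Fragments at a summit were solved from the fold and −log10 p to within 0.002 of the deposited −log10 p, and 99.9% of the peaks of each list, after rounding, gave a whole number. The lowest background was 0.54 to 1.67 fragments. Genotypes were compared by two-sided exact permutation tests over 70 assignments of libraries, classes of regions within libraries over all sign patterns, and single regions by limma 3.58.1 (R 4.3.3) with trend on log2 of the highest fold in a region minus the library median, over regions with a peak in all 8 lists, with Benjamini-Hochberg adjustment and a threshold of 0.05. CpG-rich meant a G+C content of at least 50% and a CpG ratio of at least 0.6.

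The members and gene lists were chosen with earlier results of these data known. Regions named were known bidirectional pairs, the 5 members of each direction with the lowest p, the 5 with the best worst rank by q, members in all libraries of 1 genotype and none of the other, and up to 3 per gene list with the highest median fold. Alternatives were a −log10 q of at least 5, the same number of peaks (6271) per library, joining within 500 bp, both start sites within 500 bp, start sites of gene records, 50% of a region covered, other centrings, fragments, at least 6 libraries, pairs of libraries averaged, a replicate block and each library left out. Comparison with CpG-rich promoters and with all annotated pairs was chosen after seeing the data. Some regions that this rule names, a marker and a sequence are not reported here. Scripts were tested on simulated data. The work used scipy 1.17.1, samtools 1.23.1, pysam 0.24.0, pandas 2.3.3, numpy 2.4.6, matplotlib 3.10.9 and Python 3.11.15.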

Additional observations from a re-analysis of the deposited data

Results flagged for a closer look

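In 6 of 50 groups of 4 libraries, 1 library lay far from the other 3 of its genotype, where chance gives about 1 in 20. In 4 of these it was Brg1fl/fl replicate 2, the library with the shortest list. It detected 73.5% of the members, while the others of its genotype detected 86.5% to 88.8%, and 51.5% of other coding promoters, while the others detected 68.5% to 70.9%. Its median fold at shared members was 9.64, below 11.3 to 11.6 in the others, and its median peak width there was 455 bp, below 582.5 to 596.5 bp. The median distance of the summit from the midpoint between start sites was 64 bp in Brg1fl/fl replicate 4, beside 60.75 to 61.25 bp in the others, and the mean distance was 125 bp in Brg1fl/fl replicate 1.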

How the results depend on the processing

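The higher detection of divergent than of other coding promoters passed in all 16 alternatives that were run, at 8.01 to 47.2 points. The largest was with all annotated pairs and genes as denominators, which count genes whether or not they are active in these cells. The genotype difference in detection turned from -2.91 to 3.13 points at equal list lengths (exact permutation test, p = 0.114) and to 3.58 points when peaks had to cover 50% of a region (exact permutation test, p = 0.914). It ranged from -7.71 to 1.40 points as libraries were left out. The excess of divergent over other coding promoters by genotype passed at 5.11 and 8.08 points under the same 2 settings, fell to 1.39 points with all annotated pairs and genes as denominators (exact permutation test, p = 0.657), and ranged from 4.31 to 9.26 points without a library. The difference in median fold between the classes turned to 0.0883 with both start sites within 500 bp (exact permutation test, p = 0.0703), passed at -0.188 with start sites of gene records (exact permutation test, p = 0.00781) and ranged from -0.0360 to 0.112 without a library. Members called lower and higher numbered 11 and 0 without centring, 18 and 52 by fragments, 8 and 43 with peaks in at least 6 libraries, and 1 and 1 with libraries averaged in pairs. Of all regions tested, 3.37% and 0.152%, 3.55% and 9.43%, 2.40% and 6.25%, and 0.675% and 0.914% were called in the same fits. Members ranged from 1 to 12 and from 1 to 29 as libraries were left out, beside 0.650% to 2.54% and 1.04% to 5.69% of all regions. The cause of these changes was not tested. Over 12 alternative fits of each of the 15 members called, 106 kept the call, 74 lost it and 0 turned its direction. These 12 did not include the fit with libraries averaged in pairs, in which 1 member was called in each direction.

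No pairing by replicate number was seen in the peak folds. Deviations of same-numbered libraries from their genotype means correlated at -0.0912 to 0.0126. No Brg1fl/+ library correlated best with the Brg1fl/fl library of its own number. This cannot show whether same-numbered libraries were prepared together. A fit with the replicate number as a block called 4 members lower and 8 higher, beside 2.02% and 2.66% of all regions. Under the block the genotype difference in detection stayed at -2.91 points (exact permutation test, p = 0.75), and that in the excess over other coding promoters at 7.06 points (exact permutation test, p = 0.5). With only 16 sign patterns these 2 tests cannot reach a p below 0.05.

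Precision is limited by 4 libraries a genotype and by depth. Where libraries 1 and 2, and 3 and 4, are averaged to 2 samples a genotype, the exact tests gave p = 1 for detection and p = 0.667 for the excess. With only 6 assignments these tests cannot reach a p below 0.05, so they decide nothing.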
